A study of Populus tomentosa with 9 samples.

Results

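The comparison described here set the library labelled antisense H2O2 against the antisense control, in suspension-cultured cells of the poplar Populus tomentosa. Both libraries came from a cell line that carries an antisense construct, and the labels do not name the gene it targets, so its level could not be given as a check of the line. By the labels, the treated cells had received 10 mM H2O2 for 3 h in the dark. The labels give normal conditions for the control cells, and day 5 after subculture for both. These are 2 of the 9 libraries of the series, which hold 1 library for each combination of 3 lines (antisense, overexpression, wild type) and 3 treatments (H2O2, ASA, control). The other libraries used beside them were the library labelled antisense ASA (1 mM ASA for 3 h, which the labels give as an abbreviation) and the wild type H2O2, wild type ASA and wild type control libraries, treated alike. The sample labels and most gene identifiers are those of poplar, although the labels' extraction text names stems of Arabidopsis.

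Of the 41624 genes in the deposited table, 23680 had at least 1 FPKM (a read level scaled to gene length and library size) in the higher of both libraries and were compared. A further 6921 genes were above 0 but below that level, and 11023 were at 0 in both libraries. The gene just inside the limit, POPTR_0004s00790, reached 1.0005 FPKM, and the gene just outside it, POPTR_0007s00230, reached 0.9998 FPKM. Differences are log2 of (FPKM + 1) over (FPKM + 1), a scale that makes differences of genes near 0 smaller than their ratios. There was 1 library a side and therefore no replicate check and no test. Intervals given for a ratio are exact 95% intervals from the reads recovered from the FPKM values, and they cover counting error only.

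Hydrogen peroxide is a reactive oxygen species that oxidises protein thiols and haem centres and also serves as a signal in plant cells. Plant cells remove it with catalases and peroxidases and keep thiols reduced with glutathione, thioredoxins and glutaredoxins. Heat shock chaperones hold or refold damaged proteins, and WRKY, ERF, NAC and MYB factors carry much of the transcriptional response to oxidants and pathogens.

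Sequencing depth was close to even. The library labelled antisense H2O2 held 18311858 recovered reads and the antisense control 17102469, and the totals of all 9 libraries lay between 17102469 and 19629543. For a gene of 1 kb, a floor of 3 reads was equal to 0.164 FPKM in the library labelled antisense H2O2 and 0.175 FPKM in the antisense control. There were 23129 genes at 1 FPKM or more in the library labelled antisense H2O2 and 23081 in the antisense control. The 20 most abundant genes took 3.74% and 4.16% of the reads in these libraries, within the range of 3.73% to 5.57% over the series. Only 2 genes of photosynthesis carry a description, so the labelled cell type could not be checked on a list of green tissue markers, and their summed level was 21.8 FPKM in the library labelled antisense H2O2 and 20.7 FPKM in the antisense control.

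Between its treated libraries the antisense line ran against the wild type, which bears on how the label of the treated library is read. In the wild type, 616 of 23197 genes were at least 2-fold higher in the H2O2 library than in the ASA library. Of these, 2 were at least 2-fold higher and 263 at least 2-fold lower in the library labelled antisense H2O2 than in that labelled antisense ASA, with a median log2 difference of -0.92. A further 1152 genes were at least 2-fold lower in wild type H2O2 than in wild type ASA. Of those, 853 were higher and 1 was lower by as much in the library labelled antisense H2O2 than in that labelled antisense ASA, with a median of 1.36. Over all 23827 genes compared between these libraries, 1279 were at least 2-fold higher and 488 lower in the library labelled antisense H2O2. Against the antisense control that library differed less in both sets. Of the 616 genes, 14 were at least 2-fold higher and 37 lower (median -0.17). Of the 1152 genes, 96 were higher and 19 lower (median 0.31). Across the 23197 genes, the correlation of the H2O2 over ASA differences of both lines was -0.841 (Pearson), a description in which genes are not independent replicates. The authors' deposited comparison tables hold the same assignment of labels as the FPKM table. For 660 genes of the table for antisense H2O2, the antisense over wild type ratio was taken from the scaled read values and from FPKM. With the median offset taken off, the largest deviation between these log2 ratios was 0.0 for the FPKM column of that label. It was 4.60 when the column labelled antisense ASA was tried. With 1 library per condition, an exchange of both labels and a different response of the antisense line cannot be told apart. The treated library is therefore called the library labelled antisense H2O2 throughout, and its values are set beside both wild type responses and beside the library labelled antisense ASA.

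In the library labelled antisense H2O2, 271 of the 23680 compared genes were at least 2-fold higher (1.14%) and 289 at least 2-fold lower (1.22%) than in the antisense control. The median difference was -0.00084, the SD over genes was 0.37, and the middle of the distribution ran from -0.18 (lower quartile) to 0.18 (upper quartile). The extremes were 3.56 and -2.83, and 11 genes were at least 4-fold higher and 14 at least 4-fold lower. The other responses were wider. The library labelled antisense ASA, set against the same antisense control, had 744 genes at least 2-fold higher (3.12%) and 1178 lower (4.93%) with an SD of 0.58 over genes. Wild type H2O2 against wild type control gave 819 higher (3.46%) and 760 lower (3.21%) with an SD of 0.54. Wild type ASA against wild type control gave 649 higher (2.75%) and 425 lower (1.80%) with an SD of 0.47.

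The genes at least 2-fold apart were found at every expression level. They made up 2.78% of the 6045 genes whose higher value lay between 1 and 5 FPKM, 2.06% of the 9557 genes between 5 and 20 FPKM, 2.01% of the 6564 genes between 20 and 100 FPKM, and 4.16% of the 1514 genes above that. In 263 of the 271 higher genes and 281 of the 289 lower genes, the 95% counting interval of the ratio left out no change. In the other genes of both sets the difference lay within counting error, and the spread between cultures was not measured in this design.

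**Figure D1:**
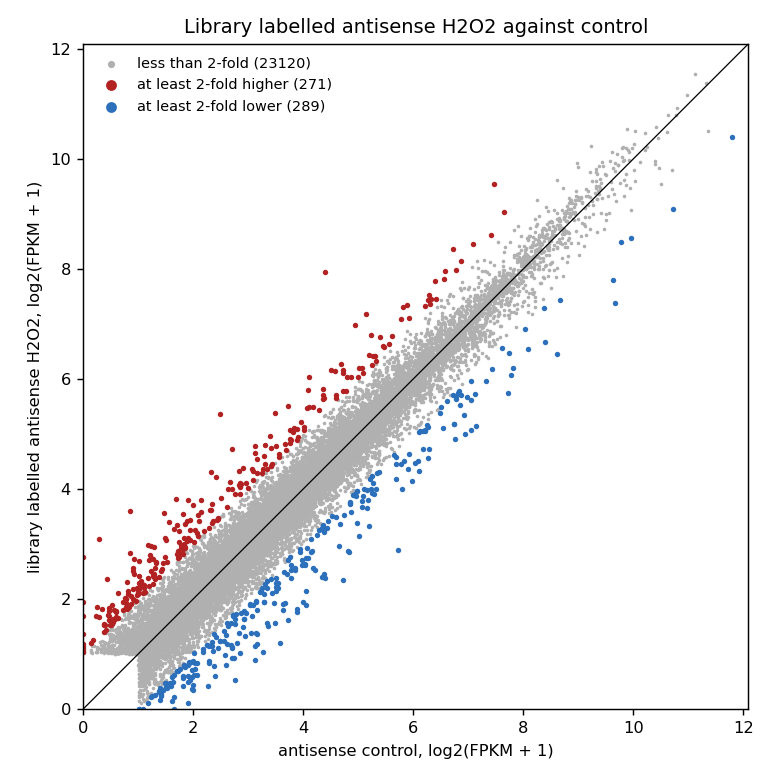
Level of each of the 23680 compared genes in the library labelled antisense H2O2 (vertical axis) against the antisense control (horizontal axis), both as log2(FPKM + 1), 1 point per gene. The 271 genes at least 2-fold higher lie above the diagonal in red and the 289 at least 2-fold lower lie below it in blue.

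Counted as the number of genes at least 2-fold apart, the library labelled antisense H2O2 was nearest to its own control, with 560 genes. The next was wild type ASA, with 789 genes, of which 263 were higher and 526 lower in the library labelled antisense H2O2. It differed from the library labelled antisense ASA by 1767 genes, from wild type H2O2 by 1998 genes and from wild type control by 2049 genes. The library labelled antisense ASA was nearest to wild type H2O2, with 822 genes, and differed from wild type ASA by 3550 genes.

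Set beside the wild type, the differences in the library labelled antisense H2O2 had the higher correlation with wild type ASA. Across the 23680 genes, Pearson's r was 0.538 with wild type ASA and 0.238 with wild type H2O2, and Spearman's rho was 0.470 and 0.187. For the library labelled antisense ASA, r was 0.709 with wild type H2O2 and -0.0225 with wild type ASA over 23872 genes. The antisense and wild type comparisons have no library in common, whereas each pair within a line shares its control.

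Of the genes at least 2-fold higher in the library labelled antisense H2O2 and compared in the wild type too, 128 of 257 (49.8%) were at least 2-fold higher in wild type ASA, which is 20.5% of the 623 wild type ASA genes. The share of all genes higher in wild type ASA was 2.71%. With wild type H2O2 the overlap was 62 of 245 genes (25.3%), or 8.02% of the 773 wild type genes, where 3.36% of all genes were higher. Opposite differences also occurred: 26 genes that were at least 2-fold higher in the library labelled antisense H2O2 were at least 2-fold lower in wild type H2O2, against 1 gene for wild type ASA. Of all genes, 3.18% were lower in wild type H2O2 and 1.70% in wild type ASA. In the other direction, 2 genes lower in the library labelled antisense H2O2 were higher in wild type H2O2, and 1 in wild type ASA. The shares of all genes higher there were 3.36% and 2.71%.

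Among the genes lower in the library labelled antisense H2O2, the overlap with wild type ASA was 117 of 269 genes (43.5%), or 29.8% of the 392 wild type ASA genes, where 1.70% of all genes were lower. With wild type H2O2 it was 102 of 269 genes (37.9%), or 13.9% of the 732 wild type genes, where 3.18% were lower. Of the 289 lower genes, 62 were lower by at least 2-fold under both wild type treatments, 55 in wild type ASA and not H2O2, 40 in wild type H2O2 and not ASA, and 132 in neither. For the 271 higher genes these numbers were 40, 88, 22 and 121.

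**Figure D2:**
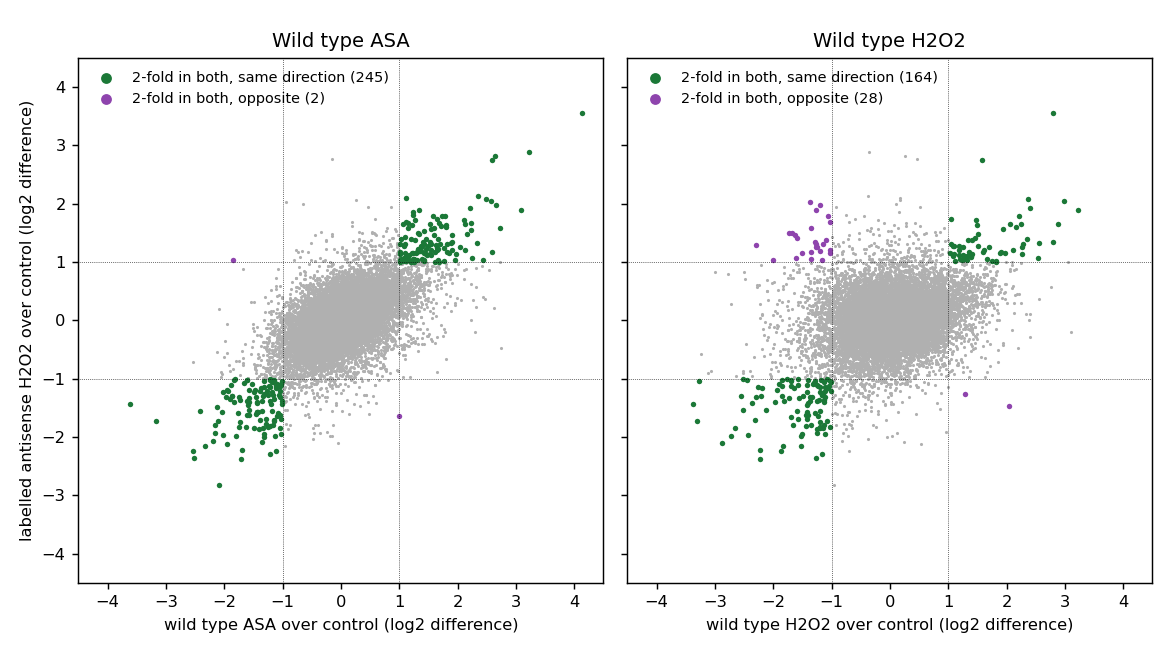
Log2 difference of each compared gene in the library labelled antisense H2O2 over antisense control (vertical axis) against wild type ASA over control (left) and wild type H2O2 over control (right). Green points are at least 2-fold apart in the same direction in both, 245 with ASA and 164 with H2O2, and purple points are at least 2-fold apart in opposite directions, 2 with ASA and 28 with H2O2.

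Read from the wild type side, most genes at least 2-fold apart in the same direction under both wild type treatments lay on that side in the library labelled antisense H2O2. Of the 203 genes at least 2-fold higher in both wild type treatments, 175 were above 0 and 28 below 0 there, with 40 at least 2-fold higher, 0 lower and a median of 0.55. Of the 109 genes lower in both, 103 were below 0 and 6 above 0, with 62 at least 2-fold lower, 0 higher and a median of -1.10. Both wild type treatments share these classes, so they do not set H2O2 and ASA apart.

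Over the same 23680 genes, 3.26% were higher and 3.09% lower in wild type H2O2, 2.63% and 1.66% in wild type ASA, and 2.88% and 4.97% in the library labelled antisense ASA. Most of the genes 2-fold apart in the wild type were so under 1 of the treatments. Among 339 genes higher in wild type ASA and within 2-fold of control in wild type H2O2, 308 were above 0 in the library labelled antisense H2O2 (median 0.60, 64 at least 2-fold higher), whereas their median in the library labelled antisense ASA was -0.54. Of 277 genes lower in wild type ASA and within 2-fold in wild type H2O2, 249 were below 0 in the library labelled antisense H2O2, with a median of -0.57 against 0.01 in that labelled antisense ASA. For the 537 genes higher in wild type H2O2 and within 2-fold in wild type ASA, the median was 0.28 in the library labelled antisense H2O2 and 0.86 in that labelled antisense ASA. The 586 genes lower in wild type H2O2 and within 2-fold in wild type ASA had a median of -0.13 in the library labelled antisense H2O2, where 12 were higher and 40 lower, and of -1.39 in that labelled antisense ASA, where 1 was higher and 437 lower.

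Apart from these classes, 37 genes were at least 2-fold lower in wild type H2O2 and at least 2-fold higher in wild type ASA. In the library labelled antisense H2O2, 36 of them were above 0, 14 were at least 2-fold higher and the median was 0.87. In the library labelled antisense ASA all 37 were below 0, 30 were at least 2-fold lower and the median was -1.57. The reverse class held 6 genes, with 3 above 0 and 3 below 0 in the library labelled antisense H2O2 (median 0.01) and 5 at least 2-fold higher in that labelled antisense ASA.

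**Figure D3:**
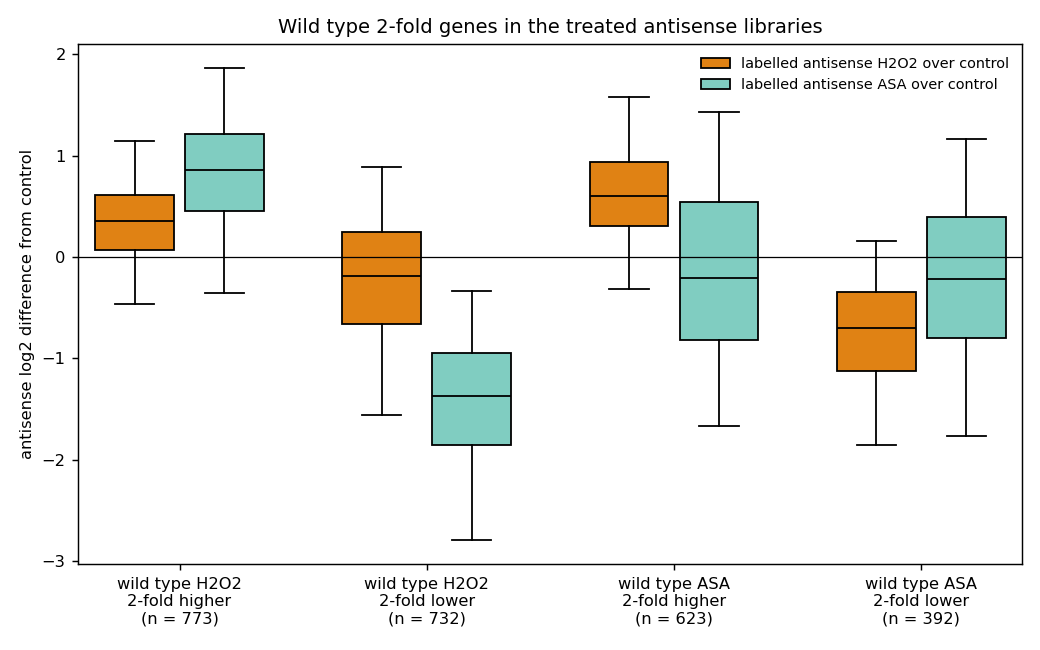
Antisense log2 difference from control (vertical axis) of the genes at least 2-fold higher or lower in wild type H2O2 and in wild type ASA, for the library labelled antisense H2O2 (orange) and that labelled antisense ASA (teal). Boxes span the quartiles with the median as a line and whiskers run to the 5th and 95th percentiles of genes: the orange medians are 0.36, -0.18, 0.60 and -0.70, and the teal medians 0.85, -1.37, -0.20 and -0.21.

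Genes are named below by their identifier and the protein domain that the authors' tables give, and where copies of a gene are near identical their reads may be split between them. Descriptions exist for 2719 genes that the authors had listed as different between lines, of which 2703 were compared here. Of those 2703 genes, 81 were at least 2-fold higher (3.00%) and 111 lower (4.11%) in the library labelled antisense H2O2, and counts in the gene groups below should be read against these shares. The same shares were 6.62% higher and 21.6% lower in the library labelled antisense ASA, 6.66% and 14.0% in wild type H2O2, and 7.85% and 5.48% in wild type ASA. In libraries of mixed cells, fewer cells of a type and less RNA per cell cannot be told apart.

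Among the 12 described genes with the largest positive difference, the first was POPTR_0018s05190, a zinc/iron permease of the family that brings metal ions into the cytosol. Its level was 40.1 FPKM in the library labelled antisense H2O2, 5.96 FPKM in that labelled antisense ASA and 4.59 FPKM in the antisense control. In the wild type it was 3.56 FPKM with H2O2, 53.7 FPKM with ASA and 4.82 FPKM in the control. High values stood in the library labelled antisense H2O2 and in wild type ASA and in neither of the other treated libraries. The antisense ratio was 8.74 (95% counting interval 7.32 to 10.5, from 1291 and 138 reads).

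The same order of libraries was seen in POPTR_0005s07760, which carries a C2 domain that binds calcium and membranes. It reached 13.1 FPKM in the library labelled antisense H2O2, 1.42 FPKM in that labelled antisense ASA and 2.21 FPKM in the antisense control, and 2.41, 21.5 and 3.43 FPKM in wild type H2O2, ASA and control. The log2 difference was 2.14 in the library labelled antisense H2O2, 2.35 in wild type ASA and -0.38 in wild type H2O2. The leucine-rich repeat gene POPTR_0479s00200 had 12, 2.35 and 2.97 FPKM in the libraries labelled antisense H2O2 and ASA and in the antisense control, and 2.01, 13.9 and 2.46 FPKM in wild type H2O2, ASA and control. Its ratio in the library labelled antisense H2O2 was 4.05 (3.17 to 5.22). Oligopeptide transporter POPTR_0010s13620, of the major facilitator superfamily, had 71, 13.5 and 21.6 FPKM in the antisense libraries in that order and 15.8, 57 and 17 FPKM in those of the wild type. In each of these 3 genes the library labelled antisense ASA and wild type H2O2 stayed within 2-fold of their controls.

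For 3 genes with large positive differences, wild type H2O2 was at least 2-fold lower than its control. The UDP-glycosyltransferase POPTR_0006s05450, from a family that joins sugars to small molecules, had 18.8, 0.60 and 4.01 FPKM in the libraries labelled antisense H2O2 and ASA and in the antisense control. Wild type H2O2, ASA and control held 1.26, 32 and 4.20 FPKM. Its log2 differences were therefore 1.98 and -1.65 in the libraries labelled antisense H2O2 and ASA, and -1.20 and 2.66 in wild type H2O2 and ASA. The gene was high in 1 treated library of each line and lower than control in the other.

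VQ-motif gene POPTR_0006s03090 is of a family whose proteins bind WRKY factors in Arabidopsis. Levels were 40.9, 6.88 and 10.2 FPKM in the libraries labelled antisense H2O2 and ASA and in the antisense control, and 8.67, 58.1 and 22.4 FPKM in wild type H2O2, ASA and control. Log2 differences were 1.90 in the library labelled antisense H2O2 and -1.27 in wild type H2O2. A gene with a glycoside hydrolase domain of the xyloglucan-modifying kind, POPTR_0005s00900, reached 69.7 FPKM in the library labelled antisense H2O2 against 22.7 FPKM in the antisense control, while the library labelled antisense ASA held 5.90 FPKM. In wild type H2O2, ASA and control it held 6.04, 118 and 17.1 FPKM, the same split between the treated libraries.

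Other large positive differences were found in all 4 treated libraries. The stress-responsive alpha-beta barrel gene POPTR_0010s16060 had 64.3, 67.3 and 16.3 FPKM in the libraries labelled antisense H2O2 and ASA and in the antisense control, with 27, 23.6 and 4.30 FPKM in wild type H2O2, ASA and control. A glycoside hydrolase gene, POPTR_0016s00460, had 12.8, 9.82 and 2.74 FPKM in the antisense libraries and 70.4, 63.9 and 6.67 FPKM in those of the wild type, in the same order. Lipid transfer protein gene POPTR_0002s25240, from a family of small secreted proteins that bind lipids, had 44.6, 53.6 and 12.2 FPKM in the antisense libraries and 30.7, 21.9 and 5.86 FPKM in the wild type. In each of these 3 genes every treated library lay above the control of its line, by log2 differences between 1.53 and 3.22.

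The F-box and kelch-repeat gene POPTR_0017s00480, of a class that selects proteins for ubiquitination, differed from its control by 1.72 in the library labelled antisense H2O2, 1.80 in that labelled antisense ASA, 1.48 in wild type H2O2 and 1.27 in wild type ASA (log2). The DUF538 gene POPTR_0011s13350, of unknown function, had its largest levels in the library labelled antisense ASA (72.8 FPKM) and in wild type H2O2 (40.5 FPKM). It reached 26.3 FPKM in the library labelled antisense H2O2 and 15.3 FPKM in wild type ASA, against 7.69 FPKM in antisense control and 4.65 FPKM in wild type control. All 4 treated libraries were above their controls in this gene. Novel00186, described as a hypothetical protein, was high in both treated antisense libraries (126 FPKM in that labelled antisense H2O2 and 104 FPKM in that labelled antisense ASA, against 29.5 FPKM in the antisense control). In the wild type its levels lay between 52.1 and 62.2 FPKM, close to each other.

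**Figure D4:**
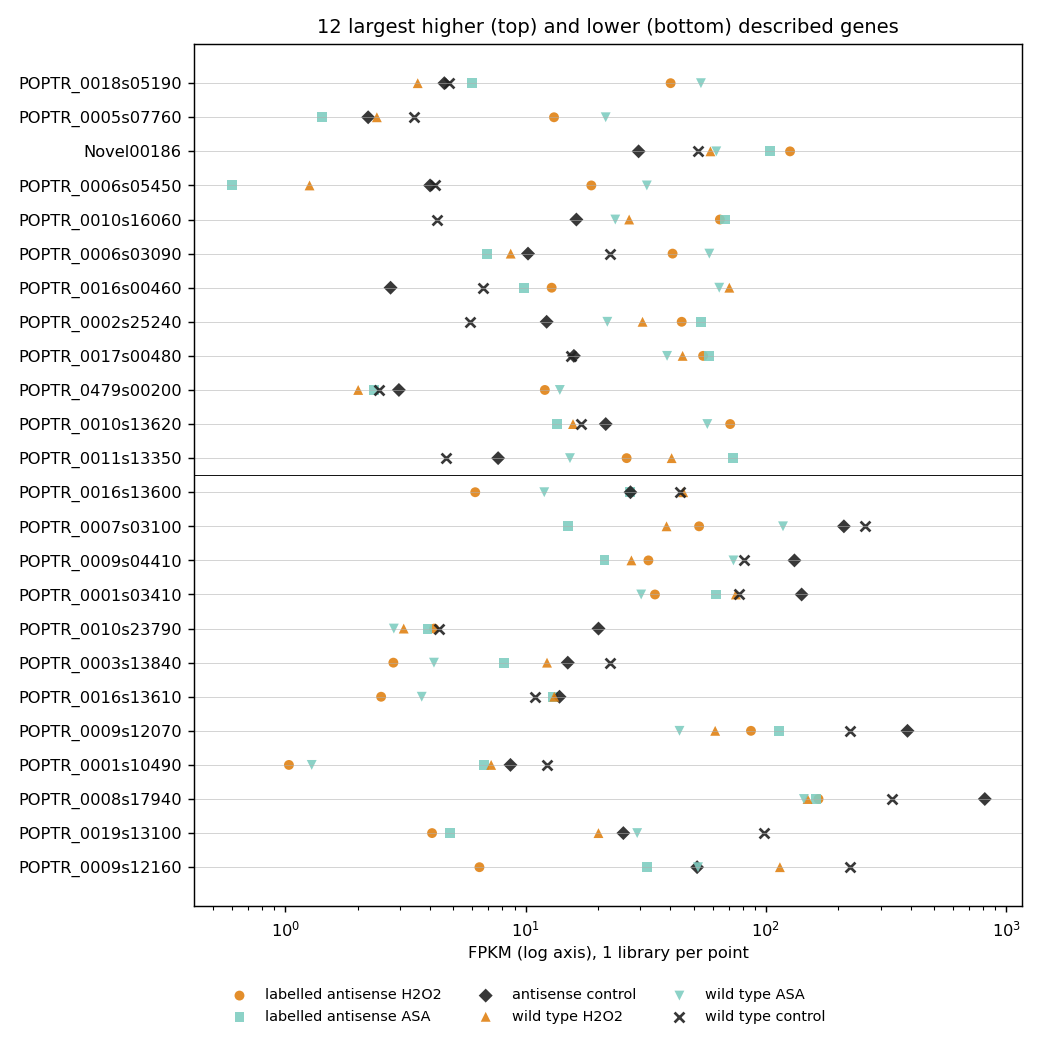
FPKM on a log axis (horizontal) of the 12 described genes with the largest positive differences (upper rows) and the 12 with the largest negative differences (lower rows) in the library labelled antisense H2O2, 1 point per library and gene. The zinc/iron permease POPTR_0018s05190 in the top row stands at 40.1 FPKM in the library labelled antisense H2O2 and 53.7 FPKM in wild type ASA, and at most 5.96 FPKM in the other 4 libraries.

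Of the genes without a description, POPTR_0008s21840 had the largest positive difference of all, 3.56. It held 246, 201 and 19.9 FPKM in the libraries labelled antisense H2O2 and ASA and in the antisense control, and 83.5, 211 and 11.1 FPKM in wild type H2O2, ASA and control, so it was high in all 4 treated libraries. The second, POPTR_0001s42460, was at 7.55 FPKM (37 reads) in the library labelled antisense H2O2 and at 0.219 FPKM (1 read) in the antisense control, a ratio of 34.6 with a counting interval of 5.83 to 1401. It was at 0.399 FPKM in the library labelled antisense ASA, 0.200 FPKM in wild type H2O2 and 5.22 FPKM in wild type ASA, and it was at 0 in wild type control.

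The largest negative difference belonged to POPTR_0009s12160, a DUF4408 gene of unknown function. It held 6.43 FPKM in the library labelled antisense H2O2, 31.9 FPKM in that labelled antisense ASA and 51.7 FPKM in the antisense control, a ratio of 0.124 (0.0972 to 0.157) for the first against the control. Wild type H2O2, ASA and control held 114, 52.2 and 224 FPKM. Every treated library was below its control, and the lowest of each line were the library labelled antisense H2O2 and wild type ASA.

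Genes of WRKY factors, which bind W-box elements and act in defence and stress responses, supplied 3 of the 12 largest negative differences. WRKY gene POPTR_0001s10490 had 1.04, 6.71 and 8.65 FPKM in the libraries labelled antisense H2O2 and ASA and in the antisense control, with 7.19, 1.29 and 12.3 FPKM in wild type H2O2, ASA and control. In POPTR_0003s13840 these levels were 2.82, 8.11 and 15 FPKM in the antisense line and 12.3, 4.16 and 22.5 FPKM in the wild type. The third, POPTR_0016s13600, stood at 6.18, 27.1 and 27.3 FPKM in the antisense line and at 45.3, 12 and 43.9 FPKM in the wild type. In all 3 genes the library labelled antisense H2O2 and wild type ASA were the low ones, with log2 differences of -1.98 to -2.24 and of -1.79 to -2.54.

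The leucine-rich repeat gene POPTR_0016s13610 followed the same order, with 2.51, 13 and 13.8 FPKM in the antisense libraries and 13.2, 3.70 and 11 FPKM in those of the wild type. Its difference was -2.08 in the library labelled antisense H2O2 and -1.35 in wild type ASA, against -0.09 in the library labelled antisense ASA and 0.24 in wild type H2O2. The gene POPTR_0021s00300, which has no description, was at 1.30, 2.93 and 10.8 FPKM in the antisense line and at 5.37, 1.67 and 14.3 FPKM in the wild type. It was thus lower than control in all 4 treated libraries, and lowest in the library labelled antisense H2O2 and in wild type ASA.

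Other genes among the 12 were lower in all 4 treated libraries. Glyceraldehyde 3-phosphate dehydrogenase gene POPTR_0008s17940, which encodes an enzyme of glycolysis, held 165 FPKM in the library labelled antisense H2O2, 161 FPKM in that labelled antisense ASA and 814 FPKM in the antisense control. Wild type H2O2, ASA and control held 149, 144 and 335 FPKM. The antisense ratio of 0.203 (0.197 to 0.210) rested on 4485 and 20594 reads. The treated libraries of both lines lay close together, and the larger antisense difference went with a control level above that of the wild type.

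An NmrA-like gene with an NAD(P)-binding domain, POPTR_0009s12070, held 86.6, 113 and 388 FPKM in the libraries labelled antisense H2O2 and ASA and in the antisense control, and 61.5, 43.7 and 223 FPKM in wild type H2O2, ASA and control. For the DUF506 gene POPTR_0019s13100 the levels were 4.08, 4.83 and 25.5 FPKM in the antisense line and 20.1, 29.1 and 98.1 FPKM in the wild type. The undescribed gene POPTR_0013s01410 stood at 0.436, 0.171 and 5.79 FPKM in the antisense line and at 0.299, 1.20 and 3.76 FPKM in the wild type. All 3 were low in every treated library against the control of its line.

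An oxygenase gene that depends on oxoglutarate and iron, POPTR_0010s23790, held 4.17 FPKM in the library labelled antisense H2O2 and 3.91 FPKM in that labelled antisense ASA, against 20.1 FPKM in the antisense control. All 3 wild type libraries lay between 2.83 and 4.36 FPKM. The difference in the antisense line thus went with a high value in its control, and the treated antisense libraries were at the wild type level.

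The genes with the largest wild type responses gave a mixed picture. Nucleoside phosphorylase gene POPTR_0019s07690, of purine and pyrimidine salvage, held 9.44, 7.84 and 107 FPKM in wild type H2O2, ASA and control, but 0.164 FPKM (4 reads) in the library labelled antisense H2O2 and 0.320 FPKM in that labelled antisense ASA, against 2.15 FPKM (49 reads) in the antisense control. The haem peroxidase POPTR_0003s21610 held 101, 89.1 and 337 FPKM in the libraries labelled antisense H2O2 and ASA and in the antisense control, and 33, 36.1 and 334 FPKM in wild type H2O2, ASA and control. Both genes were low in all 4 treated libraries. Among genes higher in the wild type, the ABI-family gene POPTR_0018s08920 had 25.6, 48.7 and 9.63 FPKM in the antisense line and 15.8, 9.49 and 1.85 FPKM in the wild type, with every treated library above its control.

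Other large wild type H2O2 responses were small in the library labelled antisense H2O2. DnaJ cochaperone gene POPTR_0004s17810 held 95.2 FPKM there, 5.16 FPKM in the library labelled antisense ASA and 142 FPKM in the antisense control, whereas wild type H2O2, ASA and control held 13.1, 116 and 132 FPKM. Universal stress protein gene POPTR_0005s01860 held 39.9, 2.70 and 75.5 FPKM in the antisense line in the same order, and 7.59, 79 and 73.6 FPKM in the wild type. For POPTR_0005s06130, of the pyridoxal phosphate-dependent transferases, the levels were 19.2, 2.06 and 36 FPKM in the antisense line and 6.37, 67.8 and 60.5 FPKM in the wild type. In these 3 genes the low libraries were wild type H2O2 and that labelled antisense ASA, while the library labelled antisense H2O2 was lower than its control by log2 differences of -0.58, -0.90 and -0.87.

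Likewise the MYB gene POPTR_0004s18020 differed by 2.40 in wild type H2O2 and by 0.10 in the library labelled antisense H2O2, where the counting interval of the ratio, 0.906 to 1.29, included no change. The C2H2 zinc finger gene POPTR_0002s12010 differed by 2.56 in wild type H2O2 and by 0.36 in the library labelled antisense H2O2. In the same order, the MYB and zinc finger genes differed by 1.49 and 0.84 in the library labelled antisense ASA. In wild type ASA they differed by 1.22 and 1.23. From wild type ASA, the EF-hand gene POPTR_0006s11320 was at 18.6 FPKM against 2.25 FPKM in wild type control, and at 7.28 FPKM in the library labelled antisense H2O2 against 2.70 FPKM in the antisense control. Wild type H2O2 and the library labelled antisense ASA were at 3.05 and 2.62 FPKM for this gene.

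Chaperone genes were mostly below 0. All 16 HSP70 genes, whose products bind unfolded protein chains, were below 0 in the library labelled antisense H2O2, 7 of them at least 2-fold lower, with a median of -0.77. Wild type ASA had 6 of the 16 at least 2-fold lower and a median of -0.90, wild type H2O2 had 0 lower and 1 higher with a median of 0.00, and the library labelled antisense ASA had 2 lower and a median of -0.03. Summed over the 16 genes, the level was 655 FPKM in the library labelled antisense H2O2, 1059 FPKM in that labelled antisense ASA and 1278 FPKM in the antisense control. Wild type H2O2, ASA and control summed to 1182, 561 and 1033 FPKM.

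By single HSP70 gene, POPTR_0001s03410 held 34.5, 62.1 and 141 FPKM in the libraries labelled antisense H2O2 and ASA and in the antisense control, and 75, 30.3 and 77.4 FPKM in wild type H2O2, ASA and control. For POPTR_0010s21350 the levels were 66.2, 105 and 218 FPKM in the antisense line and 158, 73.7 and 165 FPKM in the wild type. In POPTR_0008s05410 they were 16.7, 31.4 and 61.7 FPKM in the antisense line and 45.4, 16.9 and 53.9 FPKM in the wild type, and POPTR_0010s21280 differed by -1.43 in the library labelled antisense H2O2. In all 4 genes wild type H2O2 was within 2-fold of its control and wild type ASA at least 2-fold lower.

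The 7 genes with small heat shock protein or related wording, proteins that hold unfolding chains, had 3 at least 2-fold lower and a median of -0.59. These were POPTR_0009s04410 (32.4 FPKM in the library labelled antisense H2O2 and 131 FPKM in the antisense control), POPTR_0003s10860 (92.1 and 270.2 FPKM) and POPTR_0008s06260 (87.6 and 214 FPKM). In the library labelled antisense ASA, 3 of the 7 were at least 2-fold lower as well. There POPTR_0009s04410 held 21.3 FPKM, and POPTR_0003s10860 and POPTR_0008s06260 differed by -1.29 and -1.43. Wild type H2O2 had 1 of the 7 lower and 1 higher, and wild type ASA 1 lower and 0 higher. POPTR_0009s04410 was at 27.6 FPKM in wild type H2O2 against 81.2 FPKM in wild type control, and POPTR_0008s06260 differed by -1.24 in wild type ASA. Of 5 HSP90 and ClpB genes 4 were below 0, and POPTR_0004s07190 was at least 2-fold lower (-1.06). No DnaJ cochaperone gene of 18 and no heat shock factor gene of 6 was 2-fold apart, with medians of -0.26 and -0.12. The DnaJ group differed between the treated libraries: 4 of 18 were at least 2-fold lower in wild type H2O2, 7 of 18 in the library labelled antisense ASA and 0 in wild type ASA.

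Among genes of redox defence, glutathione S-transferases, haem peroxidases and the oxidase group were mostly below 0. Glutathione S-transferases conjugate glutathione to reactive compounds, and 18 of their 22 genes were below 0 with a median of -0.42, though 0 passed 2-fold. The largest difference was that of the most abundant of the members named, POPTR_0010s07070, with 1451 FPKM in the library labelled antisense H2O2 and 2619 FPKM in the antisense control (-0.85). It was lower by similar amounts in the library labelled antisense ASA (-1.01), wild type H2O2 (-0.89) and wild type ASA (-0.78). The group as a whole was not alike in these libraries. Its medians were -0.85 in the library labelled antisense ASA, -0.48 in wild type H2O2 and -0.0071 in wild type ASA. At least 2-fold lower were 8, 3 and 0 of the 22 genes, and 1 was higher in wild type H2O2. Summed levels over the 22 genes were 5471 FPKM in the library labelled antisense H2O2, 4429 FPKM in that labelled antisense ASA and 7690.3 FPKM in the antisense control.

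Of 34 thioredoxin-fold genes 24 were below 0, but 20 of the 34 are glutathione S-transferases counted above, 18 of them below 0. The other 14 had 8 above 0 and 6 below 0, with a median of 0.06. In the whole list 1 gene was at least 2-fold higher. That gene, the glutaredoxin POPTR_0011s05780, held 33.1, 6.57 and 13.8 FPKM in the libraries labelled antisense H2O2 and ASA and in the antisense control. Wild type H2O2, ASA and control held 11.3, 72.4 and 24.1 FPKM, so wild type H2O2 lay below its control and wild type ASA above it. Haem peroxidases use hydrogen peroxide to oxidise phenolic substrates, and of 18 genes 1 was at least 2-fold higher and 4 lower (median -0.31). The higher one, POPTR_0006s13190, held 109.8, 138 and 36.4 FPKM in the antisense line and 532, 403 and 138 FPKM in the wild type, above control in all 4 treated libraries. Beside POPTR_0003s21610, the lower ones included POPTR_0007s13420 (-1.79) and POPTR_0018s09710 (-1.46).

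The 20 genes of NADPH oxidases and FAD-linked oxidases had 2 members at least 2-fold lower and a median of -0.22. Berberine-bridge-type FAD-linked oxidase POPTR_0011s16560 held 544, 561 and 1684 FPKM in the libraries labelled antisense H2O2 and ASA and in the antisense control, and its relative POPTR_0254s00230 held 377, 328 and 988 FPKM. In wild type H2O2, ASA and control they held 459, 400.0 and 1221 FPKM and 281, 236 and 725 FPKM, so both were lower in every treated library. The respiratory burst oxidase gene POPTR_0001s09970, of the enzymes that make superoxide at the plasma membrane, differed between treatments, with 5.40, 0.783 and 2.37 FPKM in the antisense line and 0.629, 7.53 and 1.68 FPKM in the wild type. Its log2 difference in the library labelled antisense H2O2, 0.92, was under 2-fold on the scale used.

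In detoxification, 2 of 33 UDP-glycosyltransferase genes were at least 2-fold higher and 0 lower, with a median of 0.08. The second beside POPTR_0006s05450 was POPTR_0010s18980, at 18.6 FPKM in the library labelled antisense H2O2 against 8.53 FPKM in the antisense control. In wild type H2O2 the group had 2 higher and 8 lower (median -0.47), and in wild type ASA 4 higher and 0 lower (median 0.32). Cytochrome P450 genes, monooxygenases of secondary metabolism, had 1 higher (POPTR_0005s18720, 1.28) and 1 lower (POPTR_0004s24360, -1.09) of 31. Neither the 29 ABC transporter genes nor the 8 MATE transporter genes held a member 2-fold apart.

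Genes of phosphate handling were lower, with a count above the share of described genes. SPX domains sense phosphate status through inositol pyrophosphates, and 5 of 9 SPX-domain genes were at least 2-fold lower in the library labelled antisense H2O2, with 8 of 9 below 0 and a median of -1.12. The medians were -0.39 in the library labelled antisense ASA, -0.48 in wild type H2O2 and -0.65 in wild type ASA, each with 1 gene at least 2-fold lower. Summed levels were 111 FPKM in the library labelled antisense H2O2, 154 FPKM in that labelled antisense ASA and 204 FPKM in the antisense control, and 496, 553 and 858 FPKM in wild type H2O2, ASA and control. The antisense control was thus below all 3 wild type libraries before any treatment.

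The largest SPX difference was that of POPTR_0002s14470, at 4.73, 5.72 and 17.4 FPKM in the libraries labelled antisense H2O2 and ASA and in the antisense control. It was followed by POPTR_1353s00200 (-1.35), POPTR_0176s00240 (-1.30) and POPTR_0014s06020 (-1.25), with 25, 115 and 78 reads in the library labelled antisense H2O2. Acid phosphatases free phosphate from organic esters, and 5 of 14 were at least 2-fold lower and 13 of 14 below 0, with a median of -0.64. Type 5 acid phosphatase POPTR_0012s03910 held 29, 69.6 and 107 FPKM in the antisense line and 261, 146 and 411 FPKM in the wild type. Its relative POPTR_0015s05350 held 45.3, 91.2 and 114 FPKM in the antisense line and 257, 167 and 346 FPKM in the wild type, and in both genes the lower treated library of a line was that labelled antisense H2O2 or wild type ASA. Of 6 glycerophosphodiester phosphodiesterase genes, POPTR_0001s13390 was at least 2-fold lower (-1.54).

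Among transcription factors, 4 of 23 WRKY genes were at least 2-fold lower and 0 higher, with a median of -0.26. The fourth beside those given above was POPTR_0003s18060 at -1.39, lower in all 4 treated libraries (-2.16 in that labelled antisense ASA and -1.25 in wild type H2O2). For the WRKY group the medians were -0.67 in the library labelled antisense ASA, -0.52 in wild type H2O2 and -0.14 in wild type ASA. There 6, 2 and 4 genes were at least 2-fold lower and 1, 0 and 0 higher. AP2/ERF factors, which include the ethylene response factors, had 1 higher and 3 lower of 31. The higher one, POPTR_0005s21690, held 15.2, 3.09 and 6.96 FPKM in the antisense line and 3.63, 17.6 and 2.43 FPKM in the wild type. The lower ones were POPTR_0010s08300 (-1.58), POPTR_0001s11780 (-1.58) and POPTR_0006s18330 (-1.09), and each was at least 2-fold lower in wild type ASA and within 2-fold of control in wild type H2O2.

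Basic helix-loop-helix factors had 3 of 17 lower and 0 higher. Of these, POPTR_0001s27680 held 15, 8.42 and 54.7 FPKM in the antisense line and was lower in all 4 treated libraries. The gene POPTR_0013s02680 held 11.6, 35.7 and 34.5 FPKM in the antisense line and 24, 6.23 and 30.5 FPKM in the wild type, and POPTR_0002s10910 differed by -1.35. Of 32 genes with a MYB or SANT domain 24 were above 0 (median 0.27), 0 were at least 2-fold higher and POPTR_0001s15510 was lower (-1.87). None of 24 NAC genes was 2-fold apart (median 0.06, against -0.34 in wild type H2O2 and 0.58 in wild type ASA). The NAC gene POPTR_0001s22630 held 56.5, 8.69 and 29.7 FPKM in the antisense line and 10.2, 59.7 and 11.2 FPKM in the wild type, high in wild type ASA and lowest in the library labelled antisense ASA. The 13 GRAS and 17 C2H2 genes held no member 2-fold apart.

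Kinase, EF-hand and RING-type genes lay above 0 more often than below it, and F-box genes below it. Of all 2703 described genes 52.6% were above 0. Of 149 protein kinase genes 97 were above 0, 5 were at least 2-fold higher and 1 was lower, with a median of 0.14, against -0.32 in wild type H2O2 and 0.24 in wild type ASA. Kinase genes POPTR_0007s00720, with ankyrin repeats, and POPTR_0009s07730 held 19.6 and 16.1 FPKM in the library labelled antisense H2O2 against 7.37 and 6.19 FPKM in the antisense control. Both were at least 2-fold lower in wild type H2O2 (-1.15 and -1.25) and above control in wild type ASA (1.10 and 0.97). A kinase gene of the MAP kinase type, POPTR_0014s08450, held 31.9, 7.86 and 13.1 FPKM in the antisense line and 11.7, 61.8 and 18.8 FPKM in the wild type. The lower one, the lectin-domain kinase POPTR_0001s05250, was at 0.737 FPKM in the library labelled antisense H2O2 and 5.05 FPKM in the antisense control, from 33 and 211 reads.

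EF-hand proteins bind calcium and pass on calcium signals, and 40 of their 62 genes were above 0, with 3 at least 2-fold higher, 2 lower and a median of 0.14. In wild type ASA 9 were higher and 2 lower (median 0.50), in wild type H2O2 2 were higher and 8 lower (median -0.22), and in the library labelled antisense ASA 0 were higher and 18 lower (median -0.68). The EF-hand gene POPTR_0007s01960 held 49.4 FPKM in the library labelled antisense H2O2 and 23.1 FPKM in the antisense control. The lower members were POPTR_0005s28110 (-1.31) and POPTR_0002s21960 (-1.29), the last at 11, 2.85 and 28.3 FPKM in the antisense line and 9.60, 55 and 37.1 FPKM in the wild type. Of 67 genes with a U-box or RING-type domain 46 were above 0, 1 was at least 2-fold lower and 0 higher. Of 25 F-box genes 16 were below 0, with 1 at least 2-fold higher, 1 lower and a median of -0.41.

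Cell wall genes held higher and lower members. Xyloglucan and glucan hydrolases act on wall glucans, and 6 of their 32 genes (18.8%) were at least 2-fold higher and 1 lower, with a median of 0.42. The medians were -0.95 in the library labelled antisense ASA, -0.59 in wild type H2O2 and 0.49 in wild type ASA. Beside POPTR_0016s00460 and POPTR_0005s00900, the family 9 glycoside hydrolase POPTR_0001s11430 held 329, 803 and 105 FPKM in the libraries labelled antisense H2O2 and ASA and in the antisense control, and 311, 136 and 64.4 FPKM in wild type H2O2, ASA and control. Its relative POPTR_0003s14740 held 349.9, 594 and 134 FPKM in the antisense line and 439, 214 and 172 FPKM in the wild type. These family 9 genes were highest in the library labelled antisense ASA and in wild type H2O2, the reverse of POPTR_0005s00900, so the group mixed both patterns.

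The 32 genes with pectin enzyme wording, which also takes in pectinesterase inhibitors, had 3 higher and 1 lower, with a median of 0.22. The pectinesterase inhibitor gene POPTR_0010s11950 held 162, 292 and 57.8 FPKM in the antisense line and 163, 69 and 94.2 FPKM in the wild type. The pectin lyase-fold gene POPTR_0002s16390 differed by 1.39 and the pectinesterase POPTR_0214s00210 by 1.36, while the pectinesterase POPTR_0015s14740 was lower (-1.03). Expansins, which loosen walls, had 2 higher and 3 lower of 14. The expansin POPTR_0014s06170 held 218, 526 and 83.4 FPKM in the antisense line, whereas POPTR_0013s05730 (-1.93), POPTR_0013s15080 (-1.58) and POPTR_0001s24760 (-1.08) were lower. None of 10 cellulose synthase genes was 2-fold apart, with 9 above 0.

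Of 30 genes of sucrose synthases, pyruvate decarboxylases and the alcohol dehydrogenase family, 7 were at least 2-fold lower, 0 were higher and 24 were below 0, with a median of -0.41. Wild type H2O2 had 16 of them lower (median -1.13), wild type ASA 2 (median -0.28) and the library labelled antisense ASA 19 (median -1.40). Some members of these families are known for induction by low oxygen, but the alcohol dehydrogenase wording takes in a whole family. The alcohol dehydrogenase family gene POPTR_0007s03100 held 52.7, 15 and 211 FPKM in the libraries labelled antisense H2O2 and ASA and in the antisense control, and 38.6, 118 and 259 FPKM in wild type H2O2, ASA and control. Its neighbours in number, POPTR_0007s03910 and POPTR_0007s03890, differed by -1.39 and -1.29 in the library labelled antisense H2O2. Sucrose synthase gene POPTR_0017s02060 held 0.908, 0.750 and 5.70 FPKM in the antisense line and was lower in all 4 treated libraries.

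Defence protein genes were mixed. Of 19 thaumatin and chitinase genes 1 was higher (POPTR_0001s24430, 1.38) and 2 lower, among them the family 19 chitinase POPTR_0004s18870, at 1343 FPKM in the library labelled antisense H2O2 and 3541 FPKM in the antisense control. The 10 genes with a CAP or Bet v I domain, found in pathogenesis-related proteins, had 3 lower and 0 higher. The CAP gene POPTR_0009s08670 held 31, 57.3 and 122 FPKM in the antisense line and 182, 157 and 394 FPKM in the wild type. None of 19 genes described as wound-induced was 2-fold apart (median 0.06), where the library labelled antisense ASA had 15 lower (median -1.42) and wild type H2O2 had 3 lower (median -0.75).

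For hormone-linked genes few members passed 2-fold. Of 33 auxin response genes 1 was higher, the AUX/IAA repressor gene POPTR_0010s08890 (1.01), and 2 lower, the SAUR genes POPTR_0002s02590 (-1.56) and POPTR_0009s12890 (-1.31). The jasmonate group of 8 had 1 higher member, the Tify-domain gene POPTR_0006s14160, at 25.2 FPKM in the library labelled antisense H2O2 and 11.9 FPKM in the antisense control. Tify-domain proteins include the JAZ repressors of jasmonate signalling.

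Growth-related groups had few members 2-fold apart, though most histone genes lay above 0. Of 28 histone genes 23 were above 0, with a median of 0.34, and 1 was at least 2-fold higher: the histone H4 gene POPTR_0006s18360, at 70.5, 27.3 and 25.3 FPKM in the antisense line and 25.3, 40.2 and 24 FPKM in the wild type. The median was 0.69 in wild type ASA and -0.04 in wild type H2O2. The 155 genes with ribosomal protein wording, which also takes in HSP90 and other proteins with that fold, had 0 higher and 1 lower. The lower one was the HSP90 gene POPTR_0004s07190 given above. The median of the 155 genes was 0.05, against 0.61 in wild type H2O2, 0.07 in wild type ASA and 0.36 in the library labelled antisense ASA. All 7 chalcone synthase and isomerase genes, which open flavonoid synthesis, were below 0 with a median of -0.08 and 0 were 2-fold apart, whereas wild type H2O2 had 4 of 7 at least 2-fold higher (median 1.11) and wild type ASA a median of 0.48. Chalcone isomerase gene POPTR_0010s21980 held 114, 139.6 and 132 FPKM in the antisense line and 260.4, 169.7 and 119.9 FPKM in the wild type. Neither treated antisense library held a member of the group 2-fold apart.

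Members at least 2-fold apart that have not been described yet complete these groups. Among those with higher levels were the EF-hand gene POPTR_0019s14300 (53.7 FPKM in the library labelled antisense H2O2 and 25.5 FPKM in the antisense control), the expansin gene POPTR_0009s14350 (174 and 84.0 FPKM), the kinase gene POPTR_0008s18150 (9.60 and 4.14 FPKM) and the kinase gene POPTR_0016s14210 (1.88 and 0.317 FPKM). Glucan hydrolase genes POPTR_0008s05600 and POPTR_0018s10320 were higher by 1.17 and 1.31 on the log2 scale, and POPTR_0001s26210 of the same group was the lower one (-1.30). These genes lie outside the rule of 4 members per group and were named after their values were seen.

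The lower members not yet given included 3 HSP70 genes, POPTR_0008s05470 (-1.19), POPTR_0010s21270 (-1.14) and POPTR_0008s05480 (-1.07), and the SPX-domain gene POPTR_0018s13140 (-1.12). Purple or type 5 acid phosphatase genes POPTR_0008s13870, POPTR_0003s02480 and POPTR_0009s12400 were lower by log2 differences of -1.82, -1.13 and -1.12, the first from 18 and 101 reads. The haem peroxidase gene POPTR_0016s14030 stood at 47.8 FPKM in the library labelled antisense H2O2 and 131 FPKM in the antisense control. In the alcohol dehydrogenase family POPTR_0007s03900 (-1.23), POPTR_0005s06160 (-1.13) and POPTR_0542s00210 (-1.01) were lower too. Of the genes in these sentences all but POPTR_0008s13870 and POPTR_0003s02480 likewise lie outside the rule and were named after their values were seen. Single lower members of other groups were the Bet v I gene POPTR_0008s23030 (-1.87), the CAP gene POPTR_0473s00220 (-1.29), the chitinase gene POPTR_0015s05980 (-1.06), the F-box gene POPTR_0009s05230 (-1.83) and the RING-type gene POPTR_0016s12270 (-1.01).

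In the remaining groups few members were 2-fold apart. Of 8 BURP-domain genes POPTR_0129s00200 was lower, at 5.74 FPKM in the library labelled antisense H2O2 and 12.5 FPKM in the antisense control. Of 12 lipid transfer protein genes, the 1 given above was higher, and of 21 genes with oxoglutarate and iron oxygenase wording the 1 given above was lower. The 8 NB-ARC resistance protein genes and the 16 translation factor genes held no member 2-fold apart, with medians of 0.22 and -0.02.

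**Figure D5:**
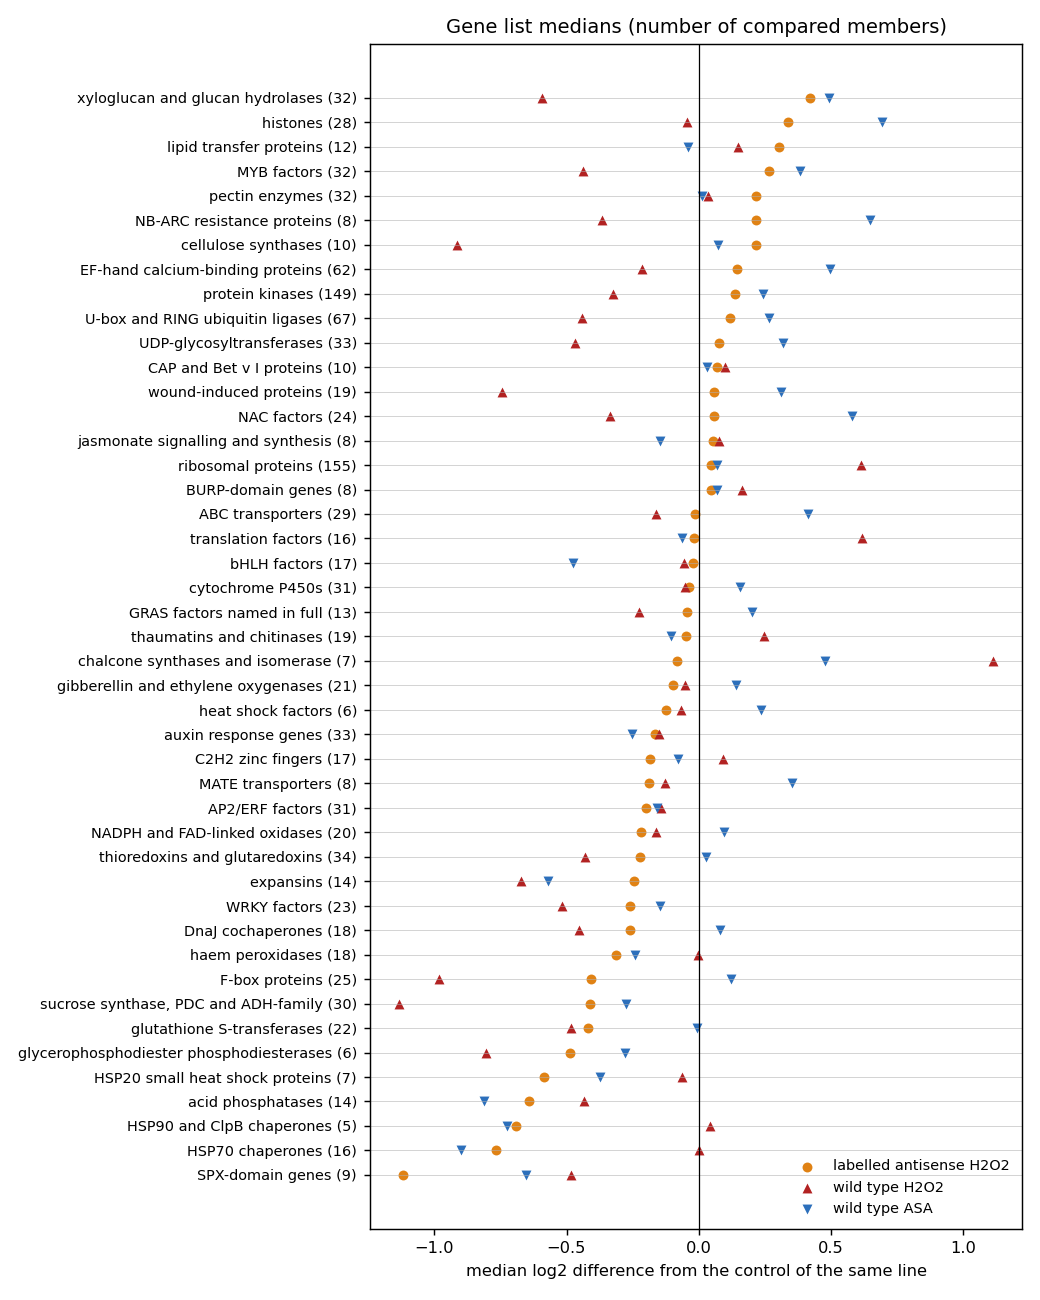
Median log2 difference from the control of the same line (horizontal axis) for each gene group with at least 5 compared members, in the library labelled antisense H2O2 (orange circles), wild type H2O2 (red triangles pointing up) and wild type ASA (blue triangles pointing down), with the number of genes in brackets. The antisense medians run between 0.42 for xyloglucan and glucan hydrolases and -1.12 for SPX-domain genes, and the HSP70 median of -0.77 stands beside -0.90 in wild type ASA and 0.00 in wild type H2O2.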

How the data were processed

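FPKM values per gene and library were made by the authors and deposited as 1 table. The submitters' processing notes name HTSeq 0.6.1, TopHat2 2.0.12, Bowtie2 2.2.3 and TopHat, with their roles, genome build and strand setting not given in the sources used here; 6 comparison tables were deposited as well. Per the file headers, the tables that the authors deposited hold scaled read values (a signal), log2 fold changes and p-values with q-values. The signal values served only to check the columns, and the deposited log2 fold changes and p-values were not used. Each library was grouped by its title.

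FPKM values gave whole reads for 33158 of 33158 genes above 0 (100%, relative tolerance 1e-07; 1546 of them have reads in 1 library only). These reads gave the depths and the exact 95% counting intervals. Differences are log2(FPKM + 1) with a pseudocount of 1 FPKM, in genes whose higher library reached 1 FPKM, and 2-fold means a difference of 1 on that scale. With 1 library per condition no test was made. The scripts were tested on simulated data.

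Named genes are the 12 described genes with the largest positive and the 12 with the largest negative difference, 2 each without a description, 5 each for both directions of the wild type H2O2 and ASA responses, and up to 4 per gene list. Lists are word patterns in the deposited descriptions: the ribosomal list takes in proteins that share a ribosomal fold, the MYB list all MYB wording, and the oxygenase and alcohol dehydrogenase patterns whole families. Descriptions exist only for genes that the authors' tables list, so no list is independent of these samples. The members and lists were chosen with earlier results of these data known. The GRAS pattern also matched "integrase", and a list with the full wording was added after seeing the data. None of the identifiers matched the reference gene table (0 matched), so no coordinates or sequences are given. Python 3.11.15, numpy 2.4.6, pandas 2.3.3, scipy 1.17.1 and matplotlib 3.10.9 were used. Alternatives were the pseudocount, the filter, the fold, centring, rank correlation and the library labelled antisense ASA.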

Additional observations from a re-analysis of the deposited data

Results flagged for a closer look

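For 6 named genes the difference in the library labelled antisense H2O2 and that in wild type H2O2 were both at least 2-fold and had opposite signs. With 1 library per condition the difference between the lines was not tested. UDP-glycosyltransferase gene POPTR_0006s05450 had 1.98 in the library labelled antisense H2O2 and -1.20 in wild type H2O2. VQ-motif gene POPTR_0006s03090 had 1.90 and -1.27, the xyloglucan endotransglucosylase gene POPTR_0005s00900 1.58 and -1.36, and the kinase gene POPTR_0007s00720 1.30 and -1.15, in the same libraries. Kinase gene POPTR_0009s07730 had 1.25 and -1.25, and the glutaredoxin gene POPTR_0011s05780 1.21 and -1.03. In the library labelled antisense ASA the same genes had differences of -1.65, -0.51, -1.78, -1.34, -1.06 and -0.96, and in wild type ASA of 2.66, 1.34, 2.72, 1.10, 0.97 and 1.55. Whether the label of the library or the line accounts for the opposite signs cannot be told apart.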

How the results depend on the processing

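The counts of 271 higher and 289 lower genes stayed within 1.5 times at 5 FPKM or more (183 and 209). They also did so after centring on the median (278 and 287) and when the counting interval had to leave out no change (263 and 281). With no filter the counts were the same by construction. On the scale with a pseudocount of 1 FPKM, a gene below 1 FPKM in both libraries cannot reach 2-fold. A pseudocount of 0.1 FPKM gave 563 and 603, a 4-fold threshold 11 and 14, and the library labelled antisense ASA in place of that labelled antisense H2O2 gave 744 and 1178. With that library the correlation was 0.709 with wild type H2O2 and -0.0225 with wild type ASA. Spearman's rho was 0.187 with wild type H2O2 and 0.470 with wild type ASA. With wild type ASA, r was 0.595 at 5 FPKM or more and 0.488 in genes without a description, an alternative chosen after seeing the data. The H2O2 minus ASA difference within each line gave -0.841. With the library labelled antisense ASA in place, 53 of the 197 named genes had the opposite sign, 36 of them within 2-fold of control in the library labelled antisense H2O2. The 17 that were at least 2-fold apart there were POPTR_0005s07760 (-0.41), POPTR_0006s05450 (-1.65), POPTR_0006s03090 (-0.51), POPTR_0479s00200 (-0.25), POPTR_0010s13620 (-0.64), POPTR_0005s00900 (-1.78), POPTR_0007s00720 (-1.34), POPTR_0009s07730 (-1.06), POPTR_0014s08450 (-0.67), POPTR_0011s05780 (-0.96), POPTR_0006s11320 (-0.028), POPTR_0010s18980 (-0.53), POPTR_0005s21690 (-0.96), POPTR_0006s14160 (-0.67), POPTR_0006s18330 (0.29), POPTR_0009s12890 (0.80) and POPTR_0013s02680 (0.048). The cause was not tested. All 197 named genes kept their sign after centring, where the median taken off was -0.00084. The filter and the pseudocount cannot change the sign of a gene's difference, so these alternatives do not check it. The medians of all 45 lists reported moved by less than 0.25 under the alternatives of scale and filter. No paired analysis was possible because each condition has 1 library and the labels carry no replicate numbers, and no library could be left out. Depth limits genes near the floor of 3 reads.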
